A study of Homo sapiens with 12 samples.

Results

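The HOX genes are described here across neuroblastoma libraries treated or not treated with ML210. Members were taken by symbol from a list of HOX genes in the order of the HOXA, HOXB, HOXC and HOXD clusters. The list gave 38 genes of the 61552 in the table, with 10 in HOXA, 10 in HOXB, 9 in HOXC and 9 in HOXD.

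HOX genes encode homeodomain transcription factors that give cells their position along the head-to-tail axis. Within a cluster they lie in the order in which they are used along the body, so that low-numbered genes at the 3′ end act towards the head and high-numbered genes at the 5′ end towards the tail. Polycomb complexes keep unused HOX genes silent, Trithorax complexes keep used ones active, and the TALE proteins PBX, MEIS and PKNOX bind DNA together with HOX proteins. Neuroblastoma arises from the sympathoadrenal lineage of the trunk neural crest, and retinoic acid, a HOX inducer in the embryo, is used in its treatment.

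Messenger RNA was sequenced from cultured cells labelled SK-N-AS or SK-N-BE(2), both wild type by genotype, kept overnight with the GPX4 inhibitor ML210 or as controls. GPX4 is the enzyme that reduces lipid peroxides in membranes. The 4 groups of 3 libraries were control and ML210 libraries labelled SK-N-AS and control and ML210 libraries labelled SK-N-BE(2), each with 1 library from each of 3 labelled batches. The design names SK-N-BE(2) as MYCN-amplified and SK-N-AS as not amplified, with 1 line for each, so that the effect of MYCN status cannot be told apart from the line. Nothing beyond the batch label says that libraries came from separate cultures, and p-values therefore measure the spread between these libraries.

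Library totals ranged from 54047293 to 83481963 counted reads. MYCN ran against the line labels. Its level was 3558 ± 122 CPM (SD, n = 3) in controls labelled SK-N-AS and 0.166 ± 0.0727 CPM (SD, n = 3) in controls labelled SK-N-BE(2). Lines are therefore named by label throughout, and every direction between lines is a direction between labels. The libraries labelled SK-N-AS of batches 2 and 3, 4 in all, held traces of genes that were high under the other label: PTPRC, a surface phosphatase of blood cells, had no read in the 2 libraries of batch 1 and 1.12 to 2.12 CPM in these 4, against 290 ± 34.5 CPM (SD, n = 3) in controls labelled SK-N-BE(2). Of the adrenergic neuroblastoma markers, 6 of 7 were lower and 1 of 7 higher in controls labelled SK-N-BE(2), and 5 of 5 mesenchymal markers were higher, where 69.2% of all genes tested were called (35.2% lower and 33.9% higher). Their part in the HOX differences was not tested.

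HOX transcripts came almost wholly from HOXC and HOXD. The summed HOXC level lay between 199 and 216 CPM in the 6 libraries labelled SK-N-AS and between 34.8 and 40.1 CPM in the 6 labelled SK-N-BE(2). Summed HOXD levels were 52.4 to 61.2 CPM and 66.5 to 109 CPM in the same order. CPM values are counts scaled by the library total after TMM normalisation, which aligns the bulk of genes between libraries.

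HOXA and HOXB were close to silent. The 10 HOXA genes together had 57 reads in the 6 libraries labelled SK-N-AS and 1 read in the 6 labelled SK-N-BE(2). The 10 HOXB genes had 56 and 63 reads. HOXA2, HOXA4, HOXB1, HOXB4 and HOXB8 had no read in any of the 12 libraries. A count of 0 over the 3 control libraries labelled SK-N-AS allows a level up to 0.0148 CPM, and under the SK-N-BE(2) label up to 0.0146 CPM. The highest single-library value in either cluster was 0.338 CPM, for the trunk gene HOXB9 in SK-N-AS control replicate 1. These floors cover counting error only.

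**Figure D1:**
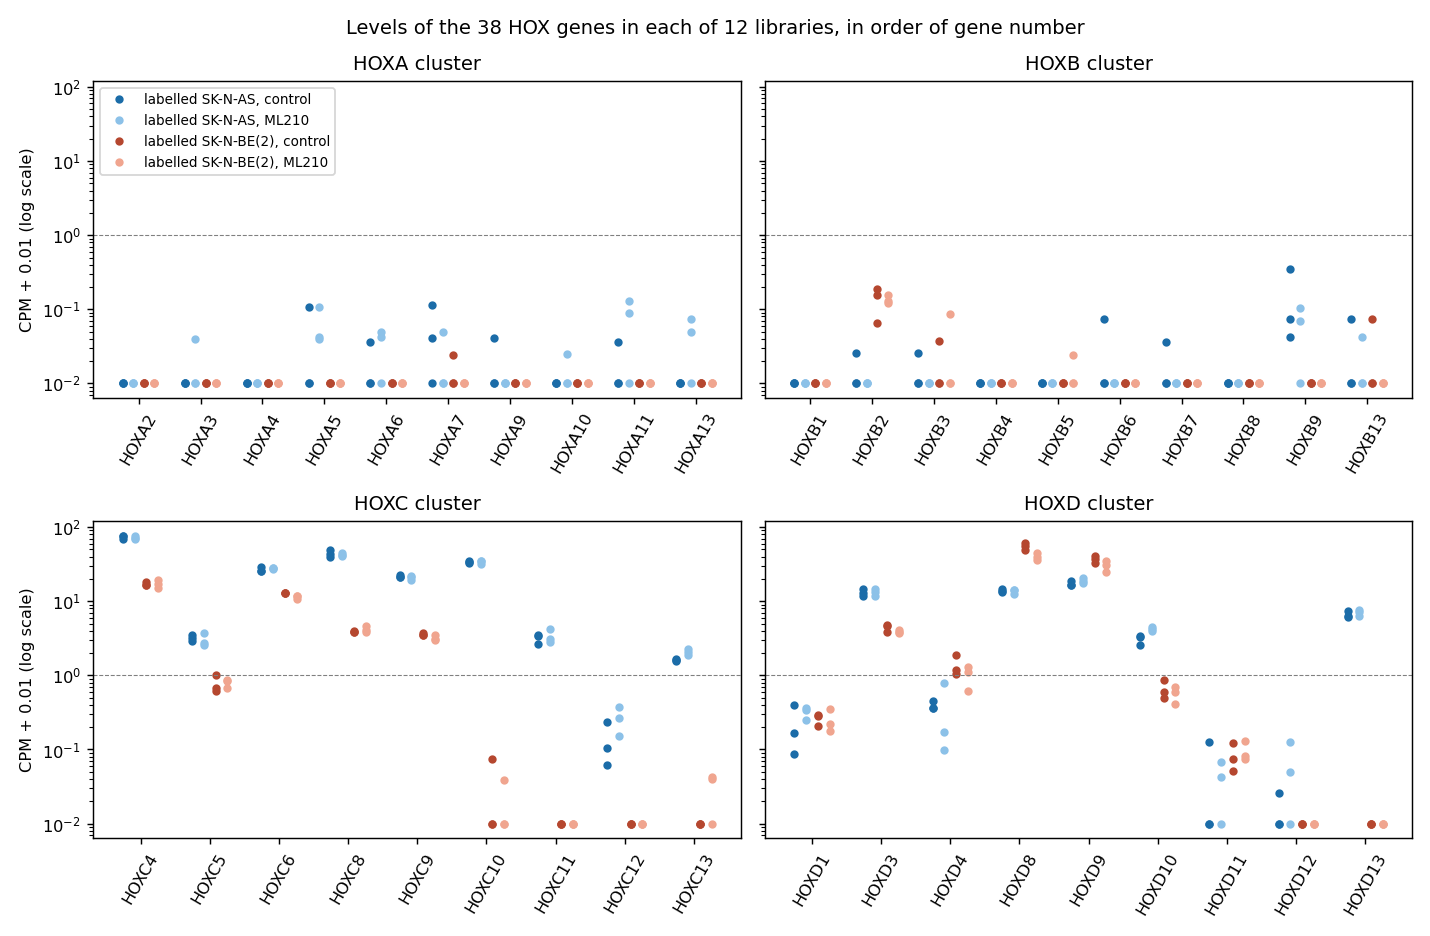
CPM + 0.01 on a log axis for each of the 38 HOX genes, in order of gene number within each cluster, with 1 point per library and 4 colours for line label and treatment. The dashed line marks 1 CPM. HOXA and HOXB points stay below it, and HOXC10 to HOXC13 and HOXD13 fall to or near the lowest position in libraries labelled SK-N-BE(2).

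A level of 1 CPM or more in all 3 libraries was reached by 13 members in controls labelled SK-N-AS and 13 in their ML210 group. It was reached by 8 members in controls labelled SK-N-BE(2) and 7 with ML210. All of them belonged to HOXC or HOXD, and 14 members reached it in some group. Members with no read in any of the 3 libraries numbered 9 and 11 in the control and ML210 groups labelled SK-N-AS, and 21 and 21 under the SK-N-BE(2) label.

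Promoter sequence of 4 HOXD genes is shown because their levels followed different patterns within a single cluster. HOXD13 was read only under the SK-N-AS label, HOXD11 was near 0 under both labels, HOXD8 was higher under SK-N-BE(2) and HOXD3 was higher under SK-N-AS. Each window is the 250 bases before a RefSeq gene start on GRCh38.p14, plus strand, at chr2:176092471-176092720 for HOXD13, chr2:176107030-176107279 for HOXD11, chr2:176129455-176129704 for HOXD8 and chr2:176157057-176157306 for HOXD3. The HOXD11 and HOXD3 starts lie inside the gene bounds of GENCODE release 29, which begin further upstream. Capitals mark matches on either strand to CACGTG, the palindromic E-box. They also mark the CCAAT box, the letters TATAAA that form the core of the TATA box, and TGATNNAT, which PBX and HOX proteins bind jointly.
HOXD13: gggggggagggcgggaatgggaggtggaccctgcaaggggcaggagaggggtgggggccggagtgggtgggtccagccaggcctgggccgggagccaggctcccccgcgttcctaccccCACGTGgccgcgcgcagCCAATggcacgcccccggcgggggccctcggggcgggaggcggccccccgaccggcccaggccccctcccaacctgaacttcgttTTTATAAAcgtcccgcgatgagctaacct
HOXD11: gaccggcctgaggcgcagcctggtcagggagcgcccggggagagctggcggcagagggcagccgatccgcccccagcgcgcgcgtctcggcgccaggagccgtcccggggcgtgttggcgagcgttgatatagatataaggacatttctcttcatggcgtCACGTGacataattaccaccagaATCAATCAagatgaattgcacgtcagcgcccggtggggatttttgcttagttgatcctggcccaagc
HOXD8: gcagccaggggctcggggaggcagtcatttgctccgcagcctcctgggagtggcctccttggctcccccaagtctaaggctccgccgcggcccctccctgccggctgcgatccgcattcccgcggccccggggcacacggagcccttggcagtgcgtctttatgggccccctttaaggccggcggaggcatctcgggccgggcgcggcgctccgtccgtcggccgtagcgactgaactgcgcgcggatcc
HOXD3: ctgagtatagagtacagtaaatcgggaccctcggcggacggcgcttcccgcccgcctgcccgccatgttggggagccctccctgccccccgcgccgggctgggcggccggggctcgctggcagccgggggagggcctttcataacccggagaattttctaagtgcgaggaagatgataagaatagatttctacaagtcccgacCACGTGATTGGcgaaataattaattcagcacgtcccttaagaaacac

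In HOXD13 the capital run near the end holds TATAAA on both strands in overlap, and in HOXD3 the E-box is followed directly by the reverse complement of CCAAT. The HOXD8 window held none of the 4 motifs. Among the other HOXD windows, those of HOXD10 and HOXD1 held CACGTG and those of HOXD12 and HOXD4 did not. RefSeq windows were matched for 20 of the 38 members, 26 windows in all, some of them several starts of 1 gene, as for HOXA3. Most were of HOXA and HOXD genes. HOXC4 and HOXC5 shared the same window, HOXC6 to HOXC13 had none, and HOXB1 was the only HOXB gene matched. CACGTG was in 8 of the 26, against 6.32% of 34943 promoter windows of the same length. CCAAT was in 17 of 26 (32% of all), TATAAA in 5 (10.8%) and TGATNNAT in 3 (6.49%). The median ratio of observed to expected CpG was 0.886 in HOX windows and 0.556 in all. These matches describe letters in a window and no binding was measured.

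The comparison of the controls asks how the lines differ without the inhibitor. Counts were tested with edgeR's quasi-likelihood test and Benjamini-Hochberg adjustment over the 20304 genes that passed a filter on low counts, with an adjusted p under 0.05 as the threshold for a call. Of the 38 members 17 passed the filter, 16 were called, 12 lower and 4 higher in controls labelled SK-N-BE(2), in a background in which 69.2% of all genes tested were called (35.2% lower and 33.9% higher). HOXC10 to HOXC13, HOXD13 and HOXB2 passed through the high group alone and so had to differ, and the count and median over those that passed are no evidence about the clusters. The median log2 difference of the 17 was -2.10, against -0.01 over all genes tested. Called differences of 3 or more on the log2 scale were found for 6 members downwards and 1 upwards, against 6.87% and 8.21% of all genes. Of these members all but HOXC8 had to differ, so this count is no evidence about the clusters either.

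Against 35.2% of all genes tested, all 9 HOXC genes were called lower under the SK-N-BE(2) label. They fell into a 3′ set that was still read under both labels (HOXC4, HOXC5, HOXC6, HOXC8, HOXC9) and a 5′ set that was read almost only under SK-N-AS (HOXC10, HOXC11, HOXC12, HOXC13). The 5′ set passed the filter through the SK-N-AS label alone and so had to be lower. The cluster spans chr12:53938765-54056030 on GRCh38, with HOXC13 at the low coordinate and HOXC4 at the high one.

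HOXC4, the gene at the 3′ end of the cluster, had 75.2, 76.8 and 69.0 CPM in controls labelled SK-N-AS replicates 1, 2 and 3, and 16.4, 18.4 and 16.6 CPM under the SK-N-BE(2) label. The groups did not overlap, and the log2 difference was -2.10 (SE 0.0893, adjusted p = 1.2e-10 by edgeR). HOXC5 had 3.51, 2.92 and 3.18 CPM against 0.665, 1.007 and 0.600 CPM, again without overlap (log2 difference -2.07). HOXC6, a brachial-level gene, had 29.4, 25.5 and 25.9 CPM against 12.95, 12.98 and 12.76 CPM. Its difference of -1.06 (SE 0.0807) was the smallest in HOXC. HOXC4 and HOXC6 share exon bases on the same strand. A further annotated gene, also named HOXC5, shares exon bases with HOXC4, with HOXC6 and with HOXC5 itself. The split of reads among these genes is therefore uncertain.

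HOXC8, a thoracic patterning gene, had 49.5, 43.0 and 39.9 CPM in controls labelled SK-N-AS and 3.88, 3.97 and 3.88 CPM under the SK-N-BE(2) label. This log2 difference of -3.50 (SE 0.0995, adjusted p = 3.7e-12 by edgeR) was the largest in the 3′ set. HOXC9, which helps set the boundary between brachial and thoracic motor neurons, had 21.1, 21.1 and 22.8 CPM against 3.46, 3.75 and 3.52 CPM. It differed by -2.60 (SE 0.101), and its groups were also separate. HOXC9 shares exon bases with HOXC6 on the same strand.

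HOXC10, a lumbar-level gene next to HOXC9, had 32.5, 35.3 and 33.4 CPM in controls labelled SK-N-AS. In controls labelled SK-N-BE(2) it had 0.0649 CPM in replicate 1 and no read in the other two. The summed reads were 6818 and 4, a CPM ratio of 1731 (95% counting interval 676 to 6355). It was 1121 or 1128 without SK-N-BE(2) control replicate 2 or 3, and at least 1617 without replicate 1. The step from HOXC9, read in all 12 libraries, to HOXC10 is the point at which the cluster went from reduced to near absent under the SK-N-BE(2) label. HOXC10 shares exon bases with AC012531.2 on the same strand.

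Further 5′, HOXC11 had 3.41, 3.51 and 2.67 CPM in controls labelled SK-N-AS and no read under the SK-N-BE(2) label, at least 220-fold lower with 3 reads over the group as the floor. HOXC13, known for its role in hair and nail formation, had 1.57, 1.59 and 1.64 CPM against no read, at least 110-fold lower. HOXC12 lies between them, with 0.0520 to 0.224 CPM under SK-N-AS and no read under SK-N-BE(2), at least 8.13-fold lower. Without SK-N-AS control replicate 2, 10 of its 24 reads remained and the bound was 4.89-fold. For HOXC11, HOXC12, HOXC13 and HOXD13, leaving out a control labelled SK-N-BE(2) lowered the bound 1.43 to 1.54 times, since the same floor of 3 reads then stood over fewer reads. Per length, HOXC12 stood at 0.0371 RPKM in SK-N-AS controls, against 0.979 RPKM for HOXC11 and 0.661 RPKM for HOXC13. The active 5′ end of HOXC under the SK-N-AS label thus had a low member inside it.

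HOXD members differed in both directions. Of the 7 tested 3 were lower, 3 higher and 1 not called, where 35.2% of all genes were lower and 33.9% higher. HOXD13 was 1 of the lower ones and had to differ, so the count is no evidence about the cluster. Both directions were found among neighbours. The cluster spans chr2:176092891-176190907, from HOXD13 to HOXD1.

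HOXD8 and HOXD9 in the middle of the cluster were higher under the SK-N-BE(2) label. HOXD8 had 13.8, 14.4 and 13.4 CPM in controls labelled SK-N-AS and 49.1, 55.4 and 60.5 CPM under the SK-N-BE(2) label, a log2 difference of 1.99 (SE 0.0989, adjusted p = 5.2e-10 by edgeR). HOXD9 had 16.7, 18.5 and 16.3 CPM against 33.1, 37.6 and 40.7 CPM (log2 difference 1.11, SE 0.116). Neither gene overlapped between labels. HOXD4 was low in both, with 0.442, 0.352 and 0.348 CPM against 1.19, 1.02 and 1.84 CPM. Its difference was 1.82 with an SE of 0.576.

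HOXD3, HOXD10 and HOXD13 went the other way. HOXD3, an anterior gene, had 11.6, 14.4 and 12.9 CPM in controls labelled SK-N-AS and 3.81, 4.63 and 4.79 CPM under the SK-N-BE(2) label (log2 difference -1.56, SE 0.130). HOXD3 shares exon bases with the antisense RNAs HAGLR and HOXD-AS2, and the strand setting of the counting is not known. HOXD3 and HOXD4 also each share exon bases with AC009336.2 on the same strand. HOXD10, a lumbar motor neuron gene, had 3.30, 2.55 and 3.41 CPM against 0.844, 0.579 and 0.488 CPM (log2 difference -2.28, SE 0.254). HOXD10 and HOXD11 share exon bases on the same strand. None of these groups overlapped.

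HOXD13, the limb and digit gene at the 5′ end, had 6.30, 6.15 and 7.27 CPM in controls labelled SK-N-AS and no read under the SK-N-BE(2) label, at least 450-fold lower. Its 2 neighbours were near 0 under both labels. HOXD11 had 9 reads over the SK-N-AS controls and 15 over the SK-N-BE(2) controls, and HOXD12 had 1 and 0. Per length these were 0.0185 and 0.00397 RPKM in SK-N-AS controls, against 2.93 RPKM for HOXD13. HOXD13 was therefore read with little from the genes between it and HOXD10. The neighbour beyond it, EVX2, named after its values were seen, had 0.267 ± 0.138 CPM (SD, n = 3) under SK-N-AS and no read under SK-N-BE(2).

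The remaining tested members were low. HOXD1 had 0.0780 to 0.384 CPM in controls labelled SK-N-AS and 0.195 to 0.279 CPM under the SK-N-BE(2) label, which overlapped, and it was not called (log2 difference 0.29, 95% interval -0.91 to 1.49, adjusted p = 0.65 by edgeR). HOXB2, a hindbrain gene, had 1 read over the SK-N-AS controls and 26 over the SK-N-BE(2) controls, or 0.0558 to 0.179 CPM in the latter. It was the single tested member outside HOXC and HOXD.

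**Figure D2:**
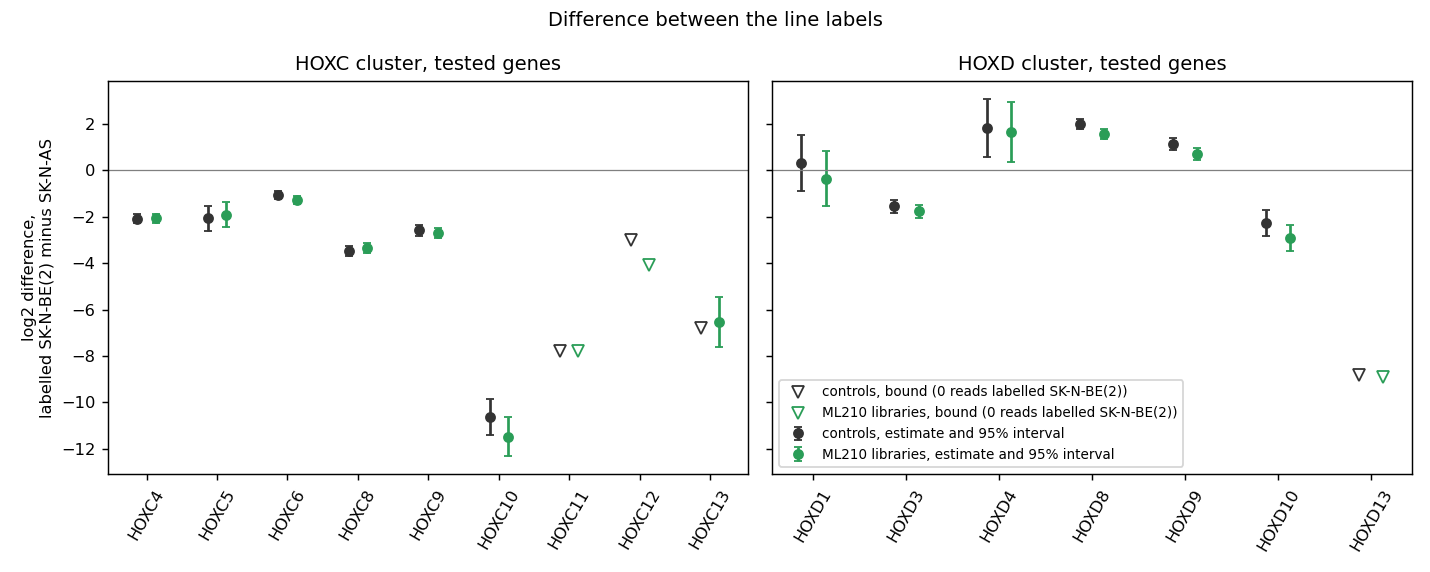
Log2 difference (SK-N-BE(2) label minus SK-N-AS label) of the tested HOXC and HOXD genes in controls (black) and ML210 libraries (green), with 95% intervals. Open triangles are bounds for genes with 0 reads under the SK-N-BE(2) label, set with 3 reads over the group as the floor. The estimate lies at or below the mark under that floor, which covers counting error only. HOXD4, HOXD8 and HOXD9 are above 0 in both.

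The order of levels per length differed between the labels. In RPKM, the CPM divided by the exon length in kilobases, HOXC4 led the controls labelled SK-N-AS at 27.04 ± 1.52 (SD, n = 3), with HOXC8 next at 23.4 ± 2.59, and the ranges of these 2 overlapped. HOXC10 at 14.5 ± 0.617, HOXC9 at 12.9 ± 0.573, HOXD9 at 9.19 ± 0.639, HOXC6 at 7.61 ± 0.602 and HOXD8 at 5.27 ± 0.210 RPKM followed, each range separate from the next. Below them came HOXD3, HOXD13, HOXC5, HOXD10, HOXC11 and HOXC13, from 3.66 down to 0.661 RPKM, where HOXD10 and HOXC11 overlapped.

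In controls labelled SK-N-BE(2), HOXD8 at 20.9 ± 2.18 RPKM (SD, n = 3) and HOXD9 at 19.8 ± 2.04 RPKM led and overlapped. HOXC4 followed at 6.29 ± 0.400 RPKM, then HOXC6 at 3.64 ± 0.0343 RPKM. HOXC9 and HOXC8 overlapped at 2.13 and 2.07 RPKM, as did HOXD3 and HOXD4 at 1.24 and 0.922 RPKM. The leading genes were thus HOXC genes under one label and HOXD8 and HOXD9 under the other.

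The same line comparison in ML210 libraries called 16 of the 17 tested members, 12 lower and 4 higher. The background was 69% (34.5% lower and 34.6% higher). All 16 were called with the same sign as in the controls. The filter was shared, so HOXC10 to HOXC13, HOXD13 and HOXB2 had to differ here too. The lines were also the same, so the count and the shared signs are no independent evidence about the clusters. HOXC10 had 34.9, 31.9 and 35.05 CPM under SK-N-AS and 2 reads in all under SK-N-BE(2), a ratio of 3363 (95% counting interval 931 to 27777). Both reads were in replicate 3, without which it was at least 1444-fold lower. HOXC13 had 4 reads under SK-N-BE(2), a ratio of 102 (39.5 to 377). HOXD13 with 6.40, 7.69 and 7.14 CPM and HOXC11 with 4.17, 3.13 and 2.80 CPM had no read under SK-N-BE(2), at least 473-fold and 219-fold lower. HOXC12 was at least 17.1-fold lower. Leaving out 1 ML210 library labelled SK-N-BE(2) lowered these 3 bounds 1.46 to 1.55 times and gave ratios from 65.7 to 140.3 for HOXC13.

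HOXD4 was the one called member whose groups overlapped here, at 0.767, 0.0880 and 0.159 CPM under SK-N-AS and 0.607, 1.29 and 1.12 CPM under SK-N-BE(2). Its call (adjusted p = 0.027 by edgeR) was lost when any of 4 single libraries was left out, SK-N-AS ML210 replicate 2 or 3 or SK-N-BE(2) ML210 replicate 2 or 3, with adjusted p from 0.061 to 0.10. Without the 4 SK-N-AS libraries of batches 2 and 3 its difference was 0.39 in place of 1.62.

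ML210 minus control within each label asks which HOX genes respond to GPX4 inhibition. Under the SK-N-AS label 0 of 17 tested members were called, in a background of 0.0296%, and 0 were called by DESeq2. An unadjusted p under 0.05 by edgeR was found for 0 of the 17, against 1398 of all 20304 genes tested. The 3 with the smallest p were HOXD10, HOXC12 and HOXC13. HOXD10 had 4.53, 4.17 and 4.00 CPM with ML210 against the control values above, a log2 difference of 0.45 (95% interval -0.04 to 0.95, adjusted p = 0.76). The ML210 libraries were all above the controls. HOXC13 had 2.03, 2.23 and 1.88 CPM, also without overlap (0.35, 95% interval -0.30 to 1.01, adjusted p = 0.89). HOXC12 had 0.256, 0.367 and 0.143 CPM and overlapped its controls (1.06, adjusted p = 0.84).

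For the well-read members labelled SK-N-AS the intervals were narrow. HOXC4 had 69.2, 75.3 and 71.4 CPM with ML210, a difference of -0.03 (95% interval -0.22 to 0.15). HOXC8 had 44.4, 42.4 and 41.0 CPM (-0.05, 95% interval -0.24 to 0.14) and HOXD8 12.4, 13.96 and 14.3 CPM (-0.03, 95% interval -0.24 to 0.18). All overlapped their controls. HOXC6 had 27.9, 28.0 and 27.5 CPM, HOXC9 21.96, 19.2 and 21.5 CPM, HOXC5 3.68, 2.58 and 2.69 CPM, HOXD3 13.2, 14.4 and 11.9 CPM and HOXD9 18.5, 20.3 and 17.7 CPM, with overlap in each.

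Under the SK-N-BE(2) label 1 of 17 tested members was called, in a background of 1.37% (0.557% lower). This was HOXD8, with 35.99, 39.1 and 44.2 CPM in ML210 replicates 1, 2 and 3 against 49.1, 55.4 and 60.5 CPM in the controls. Every ML210 library was below every control and all 3 same-batch pairs fell. The log2 difference was -0.47 (SE 0.0946, 95% interval -0.67 to -0.26, adjusted p = 0.028 by edgeR). The call was lost on leaving out SK-N-BE(2) control replicate 2 or 3 or ML210 replicate 1 or 2 (adjusted p from 0.065 to 0.10), in a fit of the 2 groups alone (0.093), and without the 4 SK-N-AS libraries of batches 2 and 3 (0.11).

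HOXD9, the neighbour of HOXD8, had 25.1, 30.9 and 34.8 CPM with ML210 against 33.1, 37.6 and 40.7 CPM. All 3 pairs were lower but the groups overlapped, and the difference of -0.29 (SE 0.114) was not called (adjusted p = 0.26 by edgeR). With the batch as a block within each line label it was called (-0.30, adjusted p = 0.015), as was HOXD8. Without SK-N-BE(2) ML210 replicate 3 it was also called (-0.43, adjusted p = 0.038).

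The other members labelled SK-N-BE(2) were not called. An unadjusted p under 0.05 by edgeR was found for 3 of 17 members in all, against 2732 of all 20304 genes tested. Besides HOXD8 and HOXD9 this was HOXC13, with 0 and 4 reads. HOXC6 had 10.6, 11.9 and 11.9 CPM with ML210, all below its controls (-0.17, 95% interval -0.35 to 0.0025, adjusted p = 0.38). HOXC4 had 17.3, 14.9 and 19.1 CPM (-0.005), HOXC8 4.56, 3.81 and 4.14 CPM (0.09) and HOXC9 3.13, 3.49 and 3.01 CPM (-0.16), each overlapping its controls. HOXD3 with 4.05, 3.82 and 3.70 CPM differed by -0.19, and HOXD10 with 0.395, 0.691 and 0.579 CPM by -0.19, also with overlap.

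**Figure D3:**
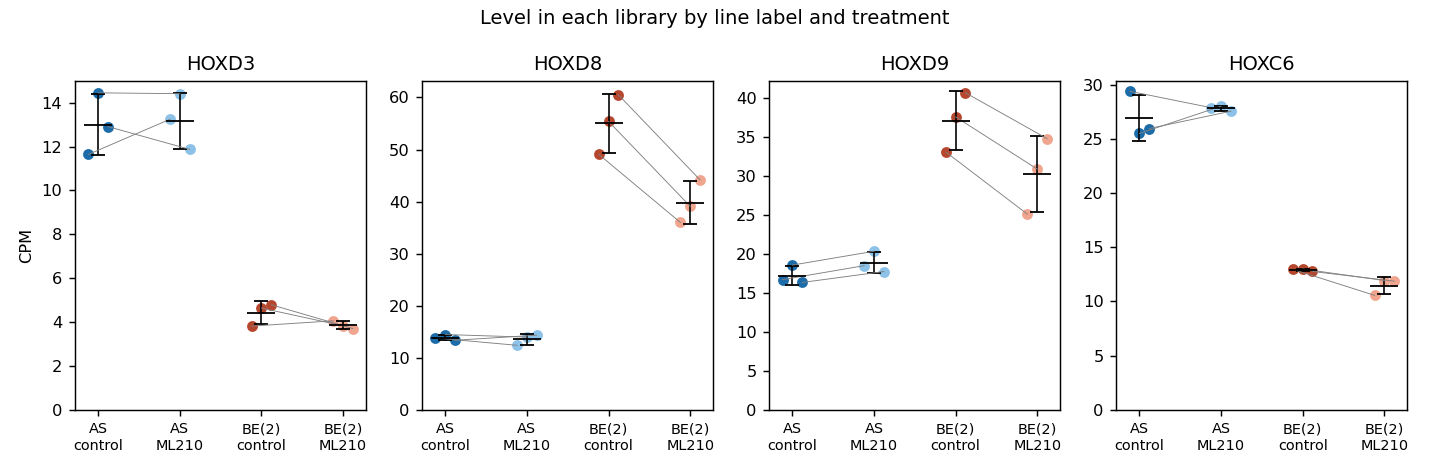
CPM of HOXD3, HOXD8, HOXD9 and HOXC6 in each library (points), with the group mean and SD (black) and grey lines joining control and ML210 libraries of the same batch. HOXD8 and HOXD9 fall in each of the 3 pairs labelled SK-N-BE(2), and HOXD3 and HOXC6 differ more by label than by treatment.

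The difference of the 2 responses was called for 0 of 17 tested members, in a background of 0.00493%, and for 0 by DESeq2. Against 1454 of all 20304 genes tested, 3 of the 17 members had an unadjusted p under 0.05 by edgeR. These were HOXD8 at -0.44 (SE 0.136, adjusted p = 0.52 by edgeR), HOXD9 at -0.43 (SE 0.163, adjusted p = 0.62) and HOXC13, which rests on 4 reads under SK-N-BE(2). The decrease of HOXD8 under the SK-N-BE(2) label is thus not shown to differ from the value of -0.03 under the SK-N-AS label.

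**Figure D4:**
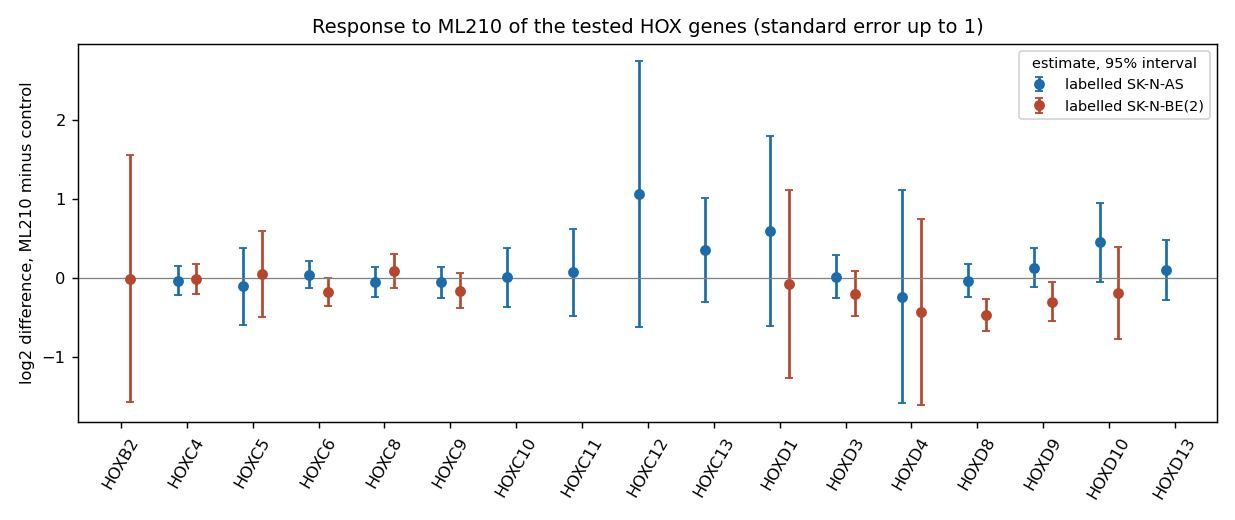
Log2 difference, ML210 minus control, of tested HOX genes under each line label with 95% intervals; genes with a standard error above 1 or with no reads in a group are left out. Of the points, HOXD8 labelled SK-N-BE(2) at -0.47 is the one called.

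The noncoding RNAs of the clusters are long transcripts between or opposite the HOX genes. Of 18 listed, 7 were tested and all 7 were called between the controls, 6 lower and 1 higher under the SK-N-BE(2) label, in the background of 69.2% (35.2% lower and 33.9% higher). HOTAIR, HOXC-AS1, HOXC-AS2, HOXC-AS3 and HAGLROS, with 0 to 10 reads over one group of controls, passed the filter through the other group alone and so had to differ. HOTAIR, which lies between HOXC11 and HOXC12 and is transcribed antisense to them, had 13.7, 11.9 and 11.0 CPM under SK-N-AS and no read under SK-N-BE(2), at least 845-fold lower (547-fold without SK-N-BE(2) control replicate 2). HOXC-AS3, opposite HOXC10, had 0.759 ± 0.134 CPM (SD, n = 3) and no read. HAGLROS, in the HOXD cluster, went the other way with 0.0494 ± 0.0481 CPM against 2.02 ± 0.331 CPM.

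Genes just outside the clusters went both ways. Of 17 flanking genes 13 were tested and all were called, 9 higher and 4 lower under SK-N-BE(2), against 69.2% of all genes (33.9% higher and 35.2% lower). EVX2 and TTLL6, with 0 reads under SK-N-BE(2) and 3 under SK-N-AS, passed through the other group alone. The flanks of HOXC, named after their values were seen, were lower for CBX5 (log2 difference -0.92) and HNRNPA1 (-0.52) and higher for SMUG1 (0.79) and CALCOCO1 (1.24). CALCOCO2 beyond HOXB was higher, from 32.4 ± 2.53 to 91.0 ± 5.43 CPM (SD, n = 3 each), HIBADH beyond HOXA from 28.7 ± 1.504 to 58.5 ± 2.59 CPM, and CBX1 beyond HOXB from 166 ± 9.86 to 289 ± 7.31 CPM. HIBADH, CALCOCO2 and CBX1 were read in all control libraries. Other listed neighbours, untested and named after their values were seen, were near silent. EVX1 beside HOXA had 2 reads over each group of controls. SKAP1, PRAC1 and PRAC2 beside HOXB had no read in the controls.

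The TALE cofactors were read under both labels. Of 9 listed, 8 were tested and all were called, 6 higher and 2 lower under SK-N-BE(2), where the background was 33.9% higher and 35.2% lower. Their median log2 difference was 0.92, against -0.01 over all genes. MEIS1 was at 14.2 ± 1.402 CPM under SK-N-AS and 54.9 ± 2.14 CPM under SK-N-BE(2) (SD, n = 3 each), and MEIS2 at 90.8 ± 3.18 and 171 ± 6.48 CPM. The 2 that were lower were PBX3 and PKNOX1.

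Chromatin regulators went both ways. Of 19 Polycomb genes tested 10 were higher, 6 lower and 3 not called, with a median of 0.26, and the 16 called stood against 69.2% of all genes. CBX6, a chromodomain subunit, was lower, from 327 ± 16.4 to 50.8 ± 3.39 CPM (SD, n = 3 each), and SUZ12, a core subunit of the H3K27 methyltransferase complex, from 87.95 ± 3.01 to 29.9 ± 1.43 CPM. PHC2, a subunit of the other Polycomb complex, was higher, at 216 ± 7.78 against 81.0 ± 2.78 CPM. Of 11 Trithorax and other activator genes 9 were lower, 1 higher and 1 not called, with a median of -0.46, where 35.2% of all genes were lower and 33.9% higher. DOT1L, the H3K79 methyltransferase, was lower, from 162 ± 8.96 to 81.6 ± 5.77 CPM, PSIP1 from 104 ± 4.66 to 62.0 ± 1.87 CPM, and MEN1, a KMT2A partner, was higher at 133 ± 2.30 against 50.5 ± 2.63 CPM.

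**Figure D5:**
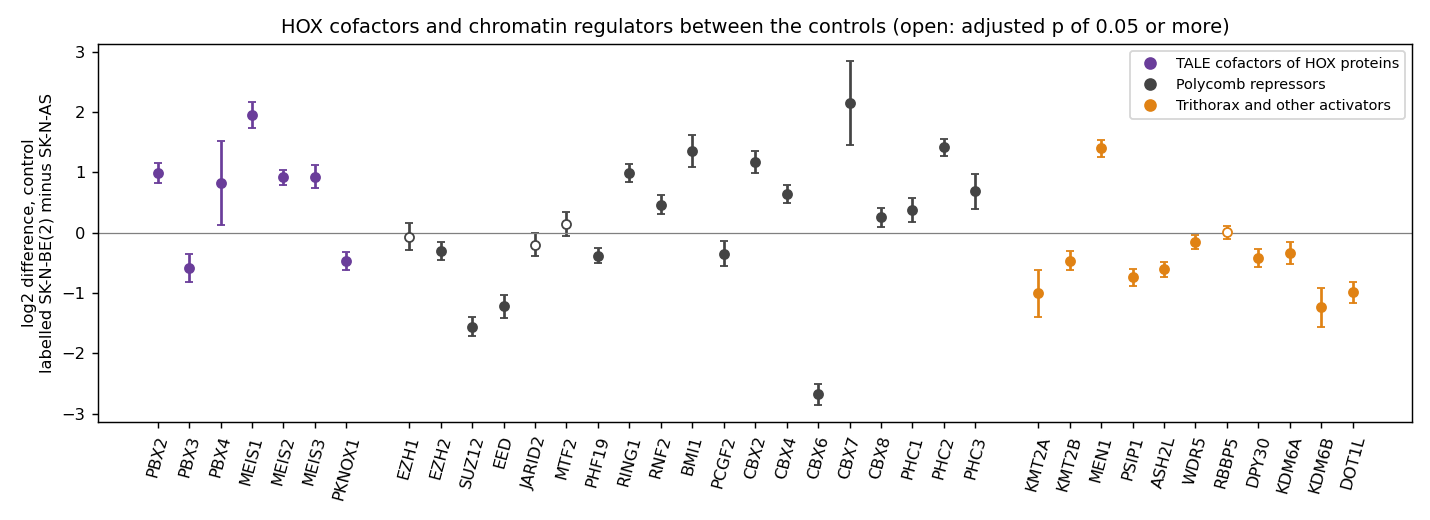
Log2 difference between the controls (SK-N-BE(2) label minus SK-N-AS label) with 95% intervals for 7 TALE cofactors and the tested Polycomb and Trithorax genes. Filled points are called and open points are not, and CBX6 at -2.68 is the lowest.

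Of 17 retinoid and CDX genes 13 were tested, 10 higher, 1 lower and 2 not called between the controls, against 33.9% higher and 35.2% lower over all genes. ALDH1A1 and CYP26B1, with no read in controls labelled SK-N-AS, passed through the SK-N-BE(2) group alone and so had to differ. CRABP2, a retinoic acid carrier, had 18.6 ± 5.41 CPM under SK-N-AS and 625 ± 48.7 CPM under SK-N-BE(2) (SD, n = 3 each), and the receptor RARG 29.6 ± 5.33 and 98.1 ± 4.39 CPM. STRA6, the membrane receptor for retinol uptake, was the one that was lower, at 225 ± 24.6 and 50.1 ± 2.46 CPM. With ML210, none of these 6 lists had a gene called by edgeR under the SK-N-AS label. There 1 of 19 Polycomb, 2 of 13 retinoid and CDX and 1 of 13 flanking genes had an unadjusted p under 0.05. Over all genes this was 1398 of the 20304 tested. Under SK-N-BE(2) PHC2 fell by 0.40 (adjusted p = 0.013 by edgeR) and STRA6 by 0.49 (adjusted p = 0.021). No other listed regulator, noncoding or flanking gene was called, where 1.37% of all genes were. An unadjusted p under 0.05 was found there for 6 of 13 retinoid and CDX, 5 of 19 Polycomb and 5 of 13 flanking genes. It was also found for 3 of 8 TALE, 1 of 11 Trithorax and 1 of 7 noncoding genes, against 2732 of all 20304 genes tested.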

How the data were processed

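The deposited values were raw counts per gene for 12 libraries, made by the authors. Per the submitters' processing notes, FastQC, Trimmomatic 1.4, HISAT2 2.2.1 and featureCounts 2.0.5 were used with builds GRCh38 and hg38. Per the labels' protocols the libraries were stranded mRNA libraries. Not given in the sources used here are the annotation, how strand and multi-mapping reads were handled, and whether reads or pairs were counted. Of values from 1 to 10 reads, 69.2% were even, so counting intervals may be too narrow.

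Counts were filtered with filterByExpr by group (20304 genes kept), scaled by TMM and fitted over all 12 libraries with a coefficient per group (edgeR 4.0.16 in R 4.3.3, robust quasi-likelihood fit, two-sided tests, Benjamini-Hochberg adjustment over all genes tested). The script was tested on simulated data. Standard errors are not given where a group had no read. RPKM used GENCODE release 29 exon lengths, and promoter windows came from RefSeq on GRCh38.p14. Alternatives were other scalings, no filter, DESeq2 1.42.0, smaller fits, batch blocks and left-out libraries.

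The members and lists were chosen with earlier results of these data known. The naming rule gave sample values for each member at 1 CPM or more in all 3 libraries of a group, every member called for ML210 or otherwise the 3 with the smallest p, and up to 3 genes of each other list with the smallest adjusted p between controls. The values of 1 gene that this rule names are not reported here. The batch label pairs the libraries. Deviations of same-batch control and ML210 libraries correlated at 0.357, 0.0677 and 0.121 labelled SK-N-AS and at 0.0957, 0.12 and 0.169 labelled SK-N-BE(2) for batches 1, 2 and 3.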

Additional observations from a re-analysis of the deposited data

How the results depend on the processing

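Between the control labels, 14 to 17 members were called under every alternative run, and between the ML210 labels 13 to 17. The members tested numbered 17 in most settings. They were 15 in a fit of the groups compared alone, 18 without the SK-N-AS libraries of batches 2 and 3, and 33 with no filter. Over all genes, the calls between the controls were 6694 higher and 6627 lower of 18872 in the fit of the groups alone. With no filter they were 7072 and 7014 of 36967. The members called higher between the ML210 labels numbered 4, but 2 in a fit of the groups compared alone and 2 without the 4 SK-N-AS libraries of batches 2 and 3. For ML210 labelled SK-N-BE(2), the 1 called member (lower) became 0 in a fit of the groups compared alone and without those 4 libraries, and 2 with a replicate block within each line, where HOXD9 joined HOXD8. Leaving out single libraries gave 0 to 2. A shared replicate block changed no call among members. HOXD1, not called, changed sign between the control labels without SK-N-AS control replicate 1 (-0.11; from -0.11 to 1.09 over single libraries left out) and between the ML210 labels without the SK-N-AS libraries of batches 2 and 3 (0.0185, against -0.37). The causes were not tested. Without those 4 libraries HOXC12 was no longer called between the controls (adjusted p = 0.14 by edgeR) and HOXB2 no longer between the ML210 labels (0.053). Over all genes, library totals in place of TMM moved the median between the controls from -0.01 to 0.24 and the calls from 6893 higher and 7154 lower to 8575 and 5550. The genes called for ML210 labelled SK-N-BE(2) numbered 279, but 51 in a fit of the groups compared alone (15 higher, 36 lower). DESeq2 called 428 higher and 362 lower, the block within each line 695 and 691, leaving out SK-N-BE(2) ML210 replicate 3 556 and 686, and leaving out the 4 libraries 10 and 17. For the difference of responses, a fit of the groups compared alone is the fit used here. Depth limits HOXA, HOXB, HOXC12, HOXD1, HOXD11 and HOXD12, which had at most 26 reads in any library.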

Other observations

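HOTTIP, HOTAIRM1, HOXA10-AS and HOXA11-AS, noncoding RNAs of the HOXA cluster, had no read in any library, as had CDX2 and CDX4, which encode factors that activate central HOX genes in the embryo. In controls, CDX1 had 0.234 CPM under the SK-N-AS label and 1.46 CPM under the SK-N-BE(2) label. TTLL6, a tubulin-modifying enzyme beside HOXB, had 3 reads over the SK-N-AS controls and 306 over the SK-N-BE(2) controls. It had 1.61, 1.27 and 1.61 CPM in the latter and 0.213, 0.321 and 0.508 CPM with ML210, without overlap, and was not called (adjusted p = 0.076 by edgeR). HAGLR, the RNA opposite HOXD1 and HOXD3, was at 30.5 ± 0.937 CPM under SK-N-AS and 21.01 ± 1.36 CPM under SK-N-BE(2) (SD, n = 3 each) in controls, a smaller difference in log2 (-0.54) than that of HOXD3 (-1.56). These genes were picked after their values were seen.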
